A study of Aedes albopictus with 6 samples.

Results

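Among the circular RNAs (circRNAs) listed for whole bodies of the Asian tiger mosquito Aedes albopictus, 168 had a possible gene copy: another circRNA, assigned to a different host gene, with the same genomic span, the same spliced length and the same product name once isoform numbers and the ending "-like" were left out. Members were taken from the exon-exon class, in which both ends of the circle lie in annotated exons. They were 168 of 7156 exon-exon circRNAs (2.35%) and of 8690 circRNAs in all. They came from 158 host genes and formed 83 sets, of which 81 held 2 circRNAs and 2 held 3. The choice compared lengths and names, not read numbers. Both copies had to be listed among the detected circRNAs, however, so a copy without reads could not enter. The lowest member had 2 reads over all libraries. Just outside it were 287 circRNAs with a same-name partner at another gene whose span and spliced length differed by up to 10 bases, and 375 whose partner had the same spliced length but another span.

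The samples were virgin females and virgin males of the Foshan laboratory strain, both aged 2 days, with 3 biological replicates of 30 pooled mosquitoes per sex. RNA was depleted of ribosomal RNA and treated with RNase R, which digests linear RNA, before sequencing. No treatment or mutation separates the groups, so sex is the comparison the design implies. No set had a product name in the ovary or sex determination lists, so the members could not check the sex labels. Libraries held 13322 to 17197 back-splice junction reads in females and 21624 to 27257 in males. In bulk samples, fewer cells of a type and less RNA per cell cannot be told apart.

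A circRNA forms when the spliceosome joins the end of an exon back to the start of the same or an earlier exon. It is counted by reads that cross this back-splice junction. Where a genome assembly holds a sequence at more than 1 place, a short read can fit each place, and the split of reads between the places then depends on how reads were assigned. Entries of an assembly with the same exon structure can be duplicated genes, or alleles of 1 gene assembled apart. Equal lengths and names do not tell these apart. Positions below are as the authors' table gives them. The build is not named in the sources used here, and whether starts count from 0 or from 1 was not settled.

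The copies lay mostly far apart on the same contig or on different contigs. In 48 sets all members were on 1 contig and in 35 they were spread over more than 1. No set had members that overlapped in position. On 1 contig the starts of the 2 leading copies, those with the most reads, were 0.374 to 13.1 Mb apart (median 1.83 Mb, quartiles 0.976 and 4.04 Mb). They were on opposite strands in 27 of the 48 sets and on the same strand in 21. Across contigs, strands were opposite in 24 sets and the same in 11. How contigs are oriented to each other is not known here, so this second split has no reading. Of the sets wholly on 1 contig, the nearest were those of axin, a scaffold of the complex that degrades beta-catenin, at 0.374 Mb. Homer protein homolog 2, a scaffold of synapses, followed at 0.604 Mb, takeout at 0.666 Mb, seipin, a protein of lipid droplet formation, at 0.753 Mb, and the homeotic protein female sterile, a bromodomain protein, at 0.784 Mb.

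Several sets shared contigs, and those named for this were singled out after their values were seen. Both copies of 2 or more sets lay on each of 13 contigs, and 3 pairs of contigs shared 2 or more sets. Sets that shared a contig were not all near each other, and contig lengths were not taken into account. Membralin and Smaug, a translational repressor known from Drosophila embryos, lay 84.3 kb apart at one place on contig NW_021838576.1 and 127 kb apart at the other, with order and strands reversed. Synaptotagmin-6, a vesicle protein that binds calcium, and the storage protein hexamerin-1.1 lay 282 kb apart at one place on contig NW_021837931.1 and 225 kb at the other, also with strands reversed. Contigs NW_021837046.1 and NW_021837445.1 shared 3 sets, 2 of aquaporin AQPAe.a, a water channel, and 1 of monocarboxylate transporter 10. The aquaporin circRNAs were 257 kb apart on the first contig and 277 kb on the second. As written, the order and strands of the 3 sets were reversed between the contigs. The orientation of these contigs to each other is not known here, so the reversal cannot be read as a rearrangement. In all, 5 pairs of genes gave 2 sets each. For neuroligin-4, a synaptic adhesion protein, the 2 circRNAs were 14.7 kb apart in one gene and 23.1 kb in the other. In these examples the spacing between sets differed between places although the circles were equal in length.

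A gene table of the AalbF5 assembly, a different build, held the gene ID of exactly 1 host gene in 68 of the 83 sets (81.9%). It held 2 host genes in 5 sets and none in 10. By gene, 72 of the 158 hosts with a possible copy matched (45.6%), against 2225 of 3528 other hosts of exon-exon circRNAs (63.1%). These shares are descriptions and were not tested. The sets with 2 matches were frizzled, fatty acid synthase, both sets of 60S ribosomal protein L4 and TIS11, a protein that promotes mRNA decay. In AalbF5 the matched L4 genes had 16 genes between them on 1 chromosome and the TIS11 genes had 2, whereas the fatty acid synthase genes were on different chromosomes. Where exactly 1 gene matched, it had more reads than the other copies in 30 sets, fewer in 24 and the same number in 14. Those sets held 1261 reads on matched genes and 1084 on the others.

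Reads on the members summed to 2893, or 2.39% of 121044 junction reads. Female replicates 1, 2 and 3 had 2.28%, 2.42% and 2.60% of their reads on members, and male replicates 1, 2 and 3 had 2.12%, 2.62% and 2.33%. The sexes overlapped, with 2.44 ± 0.162% in females and 2.36 ± 0.254% in males (SD, n = 3 each). The female minus male difference was 0.0785 percentage points (exact permutation test, two-sided, p = 0.8, where 3 against 3 libraries allow no p under 0.1).

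Members had a median of 6 reads over the 6 libraries (quartiles 3 and 15.5), against 4 (quartiles 3 and 11) for the 6988 other exon-exon circRNAs. Reads came from 1 library in 53 members (31.5%) and in 2881 of the others (41.2%), and from all 6 libraries in 26 members (15.5%) and 767 others (11%). The median spliced length was 492 bases for members and 653 for the others. An inner intron, taken as a spliced length more than 1 base under the span, was present in 100 members (59.5%) and 5614 others (80.3%). These differences were not tested.

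Copies of a set often had unequal reads where reads were many. Among 33 sets with 20 or more reads, the leading copy had 2-fold or more the reads of the second in 22 (66.7%), with a median of 2.46-fold. None had the same reads in all 6 libraries, but counting error makes that unlikely at such depth even for copies of equal level. The leading copy is the higher one by definition, so these ratios describe a spread and have no test.

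**Figure D1:**
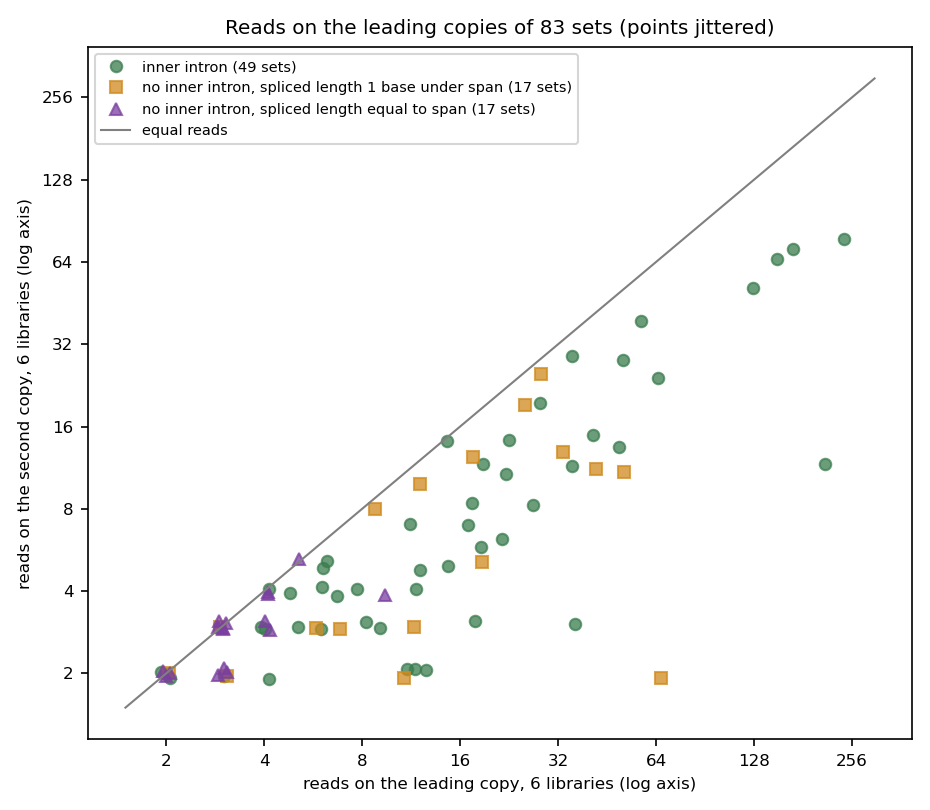
Reads over 6 libraries on the leading copy (x axis) and the second copy (y axis) of 83 sets, both on log axes, with points jittered and markers by exon structure. Sets without an inner intron and with a spliced length equal to the span have 13 reads or fewer each. Most of them sit near the line of equal reads, but no member had under 2 reads, which leaves little room for a gap. Fatty acid synthase, with 9 against 4 reads, lies further under the line. The sets with most reads also lie under it.

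Exactly equal counts occurred in 16 sets, and most of these belonged to 1 class of structure. The table gives a spliced length equal to the span (end minus start) in 17 sets, 1 base less in another 17 and at least 2 bases less, an inner intron, in 49. The copies had the same reads in every library in 11 of the 17 sets of equal length (64.7%, exact binomial 95% interval 38.3 to 85.8%). This was so in 1 of 17 sets with 1 base less (5.88%, 0.149 to 28.7%) and in 4 of 49 with an inner intron (8.16%, 2.27 to 19.6%). The intervals cover counting of sets only. Sets share genes and contigs, so no test was made.

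Depth moved with this class. Sets of equal length had a median of 6 reads and at most 13, sets with 1 base less a median of 22 and sets with an inner intron a median of 19. Of the sets with 10 or fewer reads, the copies were equal in 11 of 16 of equal length, 1 of 5 with 1 base less and 4 of 12 with an inner intron. None of the 50 sets with over 10 reads had equal copies, but exact equality in every library grows less likely as reads increase. No member had fewer than 2 reads. A pair with 4 reads in all was thus equal in total, and a pair with an odd total could not be equal. All 16 equal sets had 2 to 5 reads per copy, 14 had reads in 1 library alone and 14 lay on 1 contig. Whether the reads of such copies are the same reads listed at both places was not tested.

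The equal copies named here were singled out after their values were seen, apart from actin-5C, the ribosomal protein S3a, seipin and female sterile. Actin-5C, a cytoplasmic actin, had 5 reads in female replicate 1 on each of its 2 genes (LOC109405344 and LOC115253654, circles of 220 bases, 1.14 Mb apart) and 0 in the other libraries. The ribosomal protein S3a had 4 reads on each copy in female replicate 3 alone, across an inner intron (span 791 bases, spliced length 656). Seipin had 3 on each copy in female replicate 2, and female sterile 3 on each in male replicate 2. Ornithine decarboxylase 1, the enzyme that starts polyamine synthesis, had 3 reads in male replicate 2 and 1 in male replicate 3 on both copies, which lay on different contigs. TIS11 had 2 reads in female replicate 1 and 1 in female replicate 3 on both. Ornithine decarboxylase 1 and TIS11 were the equal sets with reads in more than 1 library. Ejaculatory bulb-specific protein 3 had 3 reads on each copy, all in male replicate 1.

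Trypsin-1 and the ribosomal protein L4 were also singled out after their values were seen. Trypsin-1, a digestive protease, formed 2 sets from the genes LOC109407316 and LOC109421635, which lie on opposite strands. Each copy of its 203-base circle had 3 reads in male replicate 1. Each copy of its 480-base circle (418 bases spliced) had 2 reads in male replicate 2. For the ribosomal protein L4 genes (LOC109621625 and LOC109400082), 2 circles began at the same base within each gene. The circle of 342 bases had 3 reads on each copy in female replicate 1. The circle of 307 bases differed: one copy had 3 and 1 reads in female replicates 1 and 3 and none in males, and the other had none in females and 1 and 2 reads in male replicates 1 and 2.

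**Figure D2:**
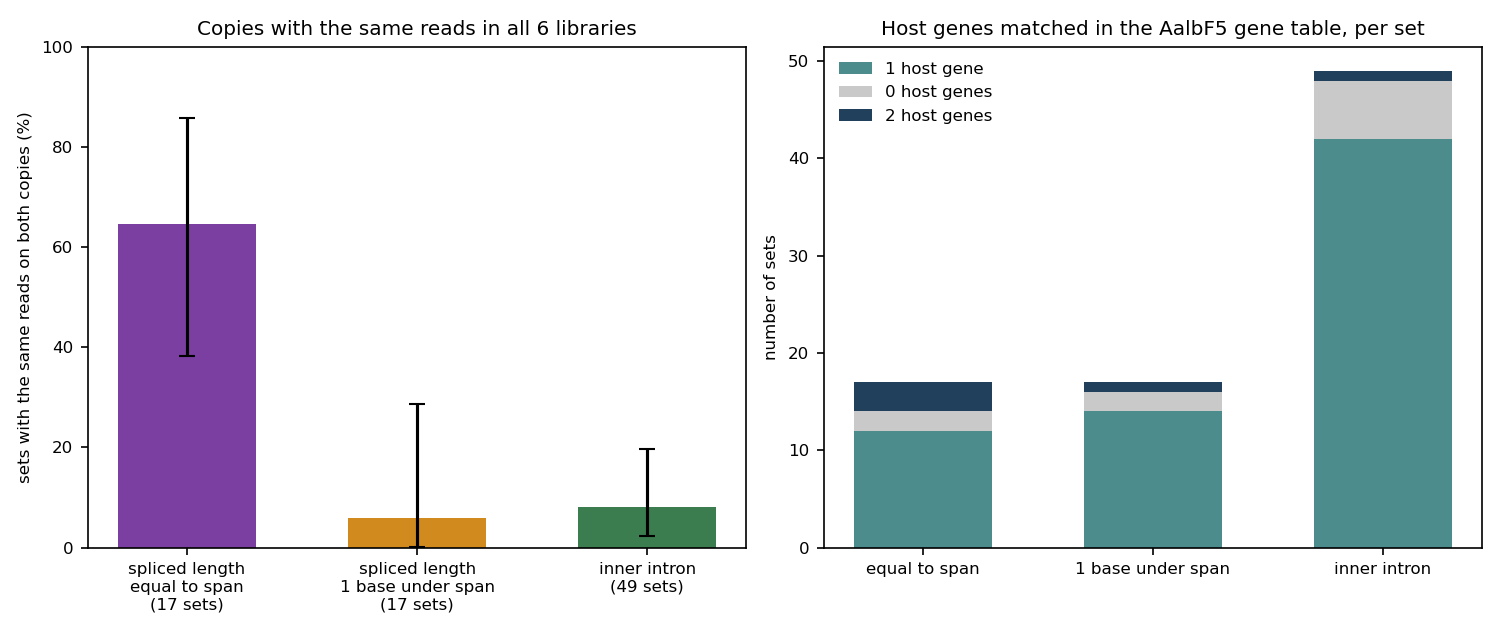
Left, percent of sets whose copies had the same reads in all 6 libraries, by exon structure, with exact binomial 95% intervals as error bars. Right, number of sets by how many of their host genes matched the AalbF5 gene table. Equal copies made up 64.7% of sets of equal length and 8.16% of sets with an inner intron, and exactly 1 host gene matched in 68 of the 83 sets.

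Of the 168 members, 23 passed the filter on low counts and were tested for sex, and 145 were not. The test was fitted with edgeR over 738 circRNAs (quasi-likelihood F test) with Benjamini-Hochberg adjustment at 0.05, as female over male. This called 1 of the 23, higher in females, where 49 of all 738 were called (6.64%, of which 3.79% higher in females and 2.85% higher in males). All female libraries lay above all male libraries in 3 of the 23, against 12.1% of all tested, and all male libraries above all female ones in 3, against 14.9%. With the reads of the copies summed, 26 of the 83 sets were tested and 1 was called, higher in females, against 6.34% of the 741 features (3.78% higher in females and 2.56% higher in males). By unadjusted p under 0.05 in edgeR, 5 of the 23 members passed, and DESeq2 also called 1 higher in females and 0 in males. The matching shares of all tested circRNAs are not given here, so these counts cannot be read as particular to the members.

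**Figure D3:**
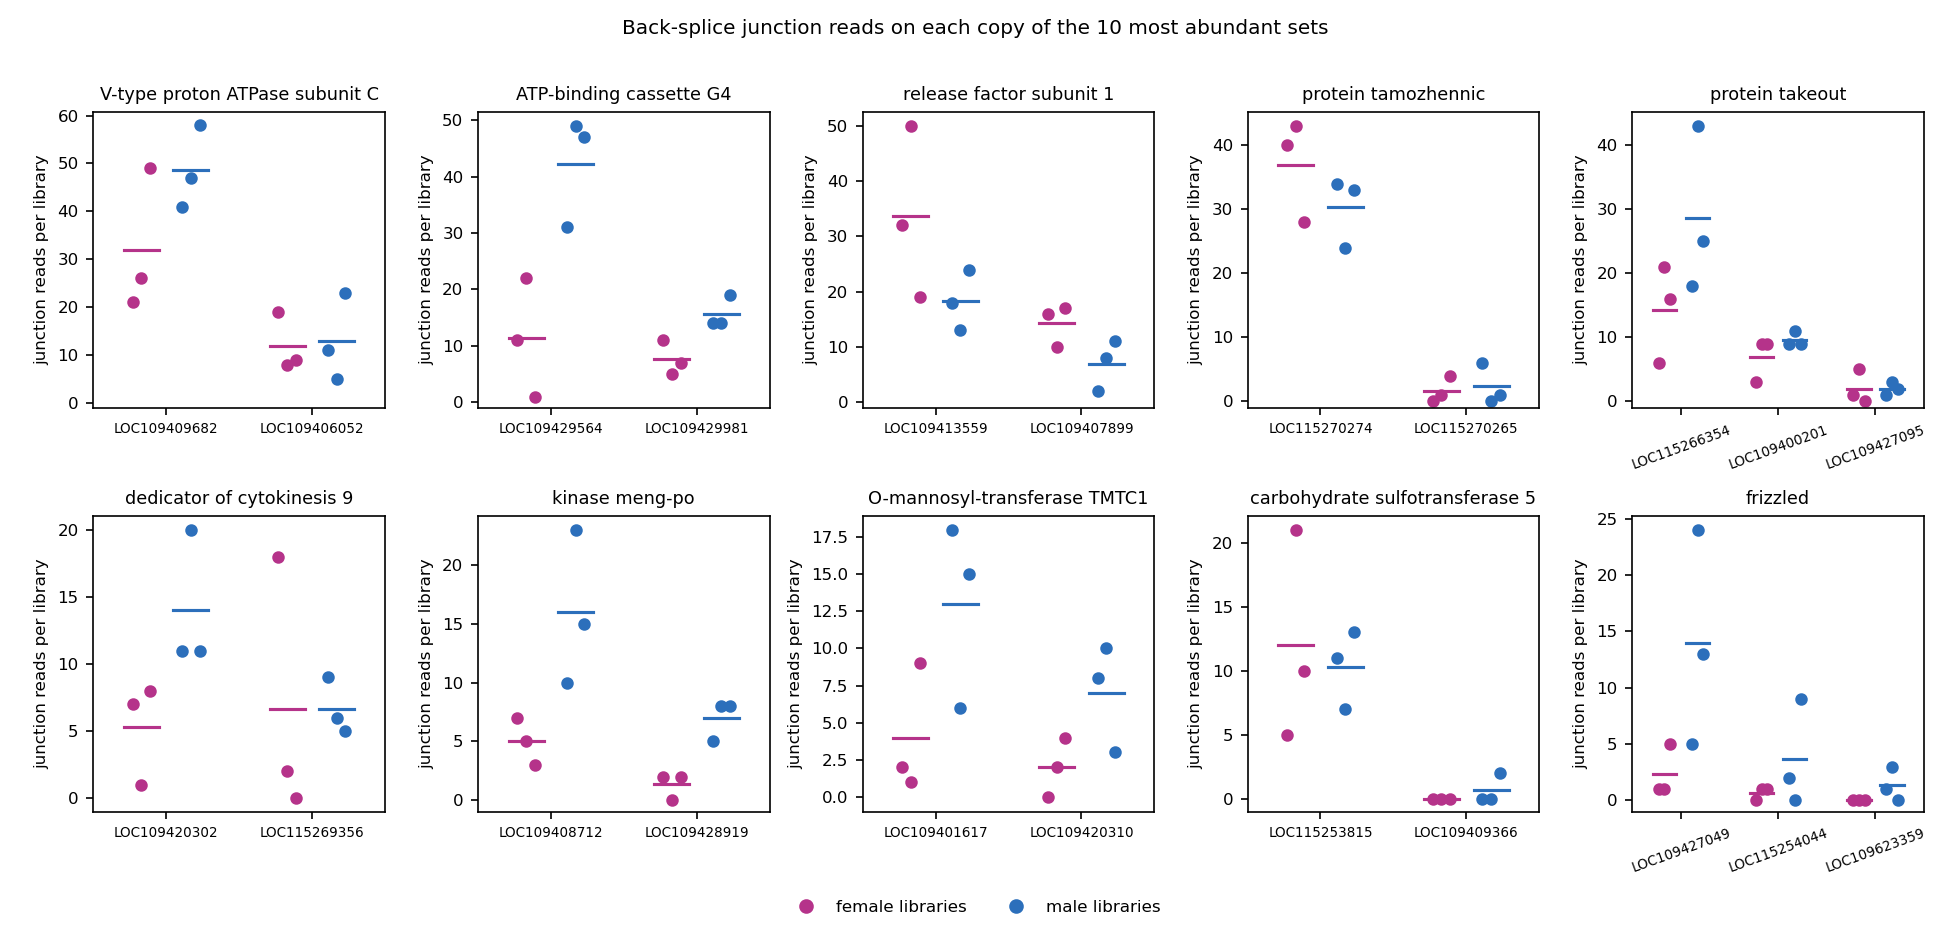
Junction reads per library on each copy of the 10 sets with most reads, female libraries left and male libraries right for each gene, with short lines at the group means. Reads are not scaled to library size, and male libraries held more reads. The leading copy is by definition the one with most reads over all libraries. Leading and second copies run from 67 against 2 reads in all for carbohydrate sulfotransferase 5 to 58 against 40 for dedicator of cytokinesis 9.

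The set called was that of eukaryotic peptide chain release factor subunit 1, which recognises stop codons and ends translation. The circle spans 721 bases with 644 bases spliced. The leading copy, LOC109413559 (contig NW_021839213.1, 85529 to 86250, plus strand), had 32, 50 and 19 reads in female replicates 1, 2 and 3, against 18, 13 and 24 in male replicates 1, 2 and 3. The second copy, LOC109407899 (contig NW_021837489.1, 41337375 to 41338096, minus strand), had 16, 10 and 17 reads in female replicates, against 2, 8 and 11 in male replicates. After scaling for library size, every female library lay above every male library for both copies.

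Per 10000 normalised junction reads, LOC109413559 stood at 20.9 ± 7.69 in females and 7.42 ± 1.91 in males (SD, n = 3 each). The female level was 2.82-fold that of males (edgeR adjusted p = 0.00731, log2 change 1.5 with SE 0.39). It missed the threshold without female replicate 2 (adjusted p = 0.167), male replicate 2 (0.116) or male replicate 3 (0.0558), and without the filter on low counts (0.333). LOC109407899 stood at 9.38 ± 3.34 in females and 2.71 ± 1.59 in males (log2 change 1.72 with SE 0.61), which did not pass (edgeR adjusted p = 0.0686). The leading copy held 70.1% of the set's reads in females and 72.4% in males. The copies summed to 30.3 ± 4.35 in females and 10.1 ± 2.25 in males, or 3.02-fold (edgeR adjusted p = 0.000367, log2 change 1.60 with SE 0.32). The summed call held in all 6 fits that left out 1 library (adjusted p 0.0012 to 0.022) and was lost without the filter on low counts (0.0803). In AalbF5 the second copy's ID matched and the leading copy's did not.

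Whether the copies of a set differed in sex ratio could be tested in 5 sets with 2 tested copies, and none passed (edgeR's diffSpliceDGE, 0% of 5 called, 0 at an unadjusted p under 0.05). The log2 fold changes of the leading minus the second copy differed by -0.23 (95% interval -1.64 to 1.19) for the release factor and -0.46 (-1.76 to 0.84) for V-type proton ATPase subunit C. They differed by -0.91 (-2.38 to 0.55) for the ABC transporter G4, -0.53 (-2.15 to 1.10) for takeout and 0.13 (-2.57 to 2.82) for TMTC1. These intervals treat the 2 copies as independent. They are wide, so the test does not show that copies act alike. Without a filter on low counts 83 sets were tested, of which 0 passed and 4 had an unadjusted p under 0.05.

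Transport proteins gave the sets with most reads. V-type proton ATPase subunit C, which joins the catalytic and membrane sectors of the proton pump, had 317 reads, with its copies 1.30 Mb apart on opposite strands of contig NW_021838153.1. LOC109409682 had 21, 26 and 49 reads in female replicates and 41, 47 and 58 in male replicates. LOC109406052 had 19, 8 and 9 in female replicates and 11, 5 and 23 in male replicates. The leading copy thus held 52.5 to 90.4% of the reads of a library. In all it held 76.3% (exact binomial 95% interval 71.3 to 80.9%, of counting error in pooled reads only). Summed levels overlapped between the sexes, at 29.0 ± 11.99 in females and 24.8 ± 4.26 in males per 10000 (by edgeR, adjusted p = 0.721, log2 change 0.23 with SE 0.28).

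ATP-binding cassette sub-family G member 4, of a family that exports sterols and lipids in mammals, had 231 reads. LOC109429564 had 11, 22 and 1 reads in female replicates, against 31, 49 and 47 in male replicates. LOC109429981 had 11, 5 and 7 in female replicates, against 14, 14 and 19 in male replicates. The first copy's male libraries all lay above its female ones, whereas those of the second overlapped after scaling. In female replicate 3 the leading copy held 12.5% of the set's reads, and over libraries its share reached 81.5%. LOC109429564 stood at 6.77 ± 6.05 in females and 17.04 ± 2.69 in males (log2 change -1.28 with SE 0.46), which did not pass (edgeR adjusted p = 0.0741). Without female replicate 2 it passed, with a log2 fold change of -2.18 (adjusted p = 0.0192), and without female replicate 3 the log2 fold change was -0.82 (adjusted p = 0.275). The summed copies had a log2 fold change of -0.95 (SE 0.35, adjusted p = 0.0832), and of -1.32 without female replicate 2 (adjusted p = 0.0402).

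**Figure D4:**
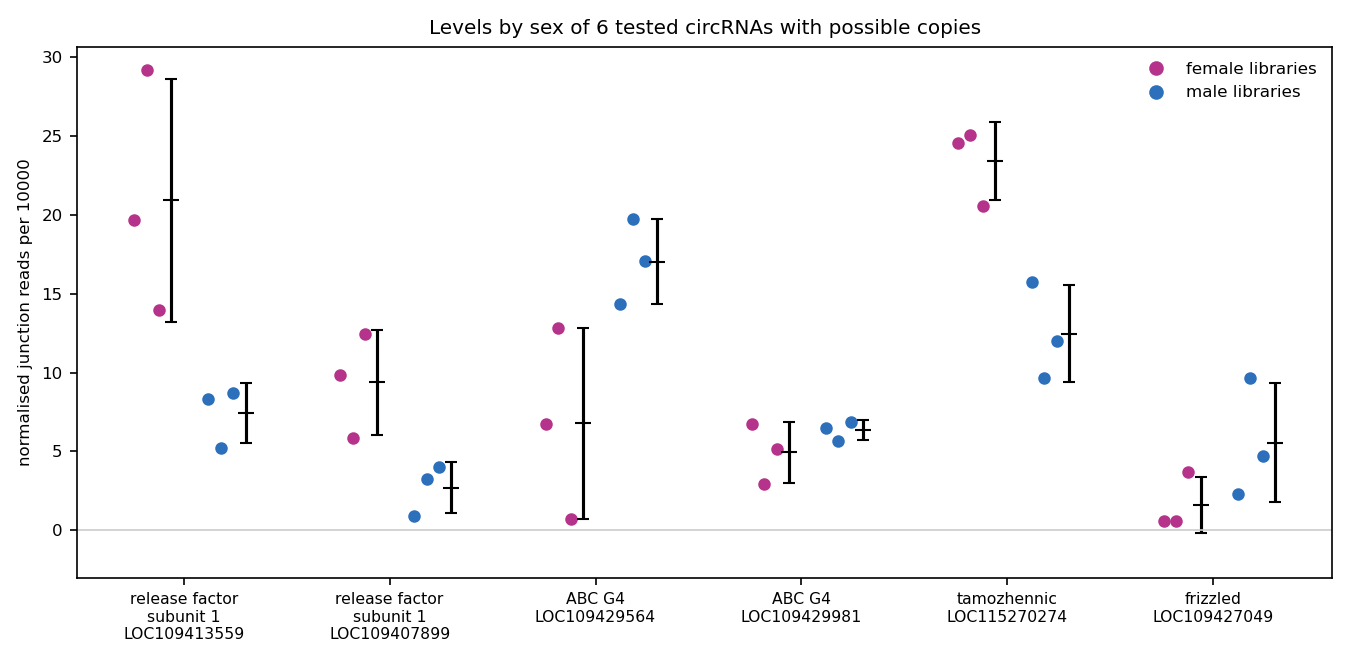
Normalised junction reads per 10000 (y axis) of 6 tested circRNAs, females left and males right, with points for libraries and black bars for mean ± SD (n = 3 each). Apart from LOC109429981, they are the 5 of 23 tested members with an unadjusted p under 0.05 by edgeR, so they do not stand for the rest. Both copies of release factor subunit 1 and tamozhennic lie higher in every female library, and LOC109429564 lies higher in every male library. LOC109413559 is the circRNA among them that passed the test.

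Tamozhennic and frizzled were further sets among the 10 with most reads. Tamozhennic, which acts in nuclear import in Drosophila, had 202 reads on LOC115270274 and 12 on LOC115270265. Thus 94.4% fell on 1 copy (exact binomial 95% interval 90.4 to 97.1%, of counting error in pooled reads only). By library this share ran from 85 to 100%. LOC115270274 had 40, 43 and 28 reads in female replicates, against 34, 24 and 33 in male replicates. It stood at 23.4 ± 2.49 in females and 12.45 ± 3.07 in males (by edgeR, adjusted p = 0.0768, log2 change 0.92 with SE 0.33). Neither of its gene IDs matched in AalbF5. Frizzled, a receptor for Wnt proteins, had 3 copies with 49, 13 and 4 reads. LOC109427049 had 1, 1 and 5 reads in female replicates, against 5, 24 and 13 in male replicates. The other copies had 2 and 0 female reads, against 11 and 4 male reads. The 3 summed to 2.06 ± 2.05 in females and 7.51 ± 3.61 in males (by edgeR, adjusted p = 0.0851, log2 change -1.90 with SE 0.70). Without female replicate 3 the summed log2 fold change was -3.03 (adjusted p = 0.0382).

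The kinase meng-po had 63 and 25 reads on its copies, with 7, 5 and 3 reads on LOC109408712 in female replicates, against 10, 23 and 15 in male replicates. LOC109428919 had 2, 0 and 2 reads in female replicates, against 5, 8 and 8 in male replicates. For LOC109408712 every male library lay above every female library after scaling. The summed level was 4.04 ± 1.34 in females and 9.25 ± 2.88 in males (by edgeR, adjusted p = 0.241, log2 change -1.17 with SE 0.57). Dedicator of cytokinesis protein 9, an activator of the GTPase Cdc42, split differently between libraries. LOC109420302 had 7, 1 and 8 reads in female replicates and 11, 20 and 11 in male replicates, and LOC115269356 had 18, 2 and 0 in female replicates and 9, 6 and 5 in male replicates. Its leading copy held 28% to 100% of the reads of a library, over libraries with 5 or more.

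Takeout, of a family related to juvenile hormone binding proteins, had 3 copies on contig NW_021837045.1 with 129, 50 and 12 reads. LOC115266354 had 6, 21 and 16 reads in female replicates and 18, 43 and 25 in male replicates. LOC109400201 had 3, 9 and 9 in female replicates and 9, 11 and 9 in male replicates. The leading copy held 60 to 75.4% of each library's reads. The summed log2 fold change was -0.12 (SE 0.38, edgeR adjusted p = 0.886).

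Enzymes that modify glycans or proteins followed. TMTC1, an O-mannosyl-transferase that modifies cadherins in mammals, had 51 and 27 reads on its copies. The summed level was 4.17 ± 4.66 in females and 8.33 ± 3.20 in males (by edgeR, adjusted p = 0.362, log2 change -1.03 with SE 0.62). Without female replicate 3 the summed log2 change was -2.46 (adjusted p = 0.0559), and without female replicate 1 it was -0.61 (adjusted p = 0.692). Carbohydrate sulfotransferase 5 had 5, 21 and 10 reads on LOC115253815 in female replicates and 11, 7 and 13 in male replicates. Its other copy, LOC109409366, had 2 reads, both in male replicate 3. This was the set in which 1 copy held the largest share, 97.1%.

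Reads were split nearly evenly for rad21, a subunit of cohesin, in total and by library. LOC109430367 had 2, 3 and 4 reads in female replicates and 5, 10 and 4 in male replicates. LOC109415405 had 1, 3 and 3 in female replicates and 5, 8 and 5 in male replicates. Membralin was as even in total, with 15 and 14 reads, but not by library: LOC109420856 had 6, 0 and 0 reads in female replicates and 2, 7 and 0 in male replicates, and LOC109411069 had 2, 4 and 1 in female replicates and 2, 1 and 4 in male replicates. The serine protease inhibitor 28Dc had 9 and 8 reads, with the first copy at 0 female and 9 male reads and the second at 7 female and 1 male reads. Of its female reads all 7 were in replicate 1, and the set was too low in reads to be tested. The phosphatase PTP type IVA 1 had 12 and 10 reads on the copies of its 955-base circle, with 7 female and 5 male reads on the first and 9 female and 1 male reads on the second. The protein eva-1 had 6 and 5 reads. Totals near to even thus stood over unequal libraries in membralin, the protease inhibitor and the phosphatase. The phosphatase copies had 0 and 4 reads in female replicate 1, and 5 and 0 in male replicate 3.

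Among channels and receptors, 8 sets with 173 reads were found, and none of 3 tested sets passed. The transient receptor potential protein, a calcium channel of photoreceptors in Drosophila, had 9 female and 27 male reads on its leading copy and 1 and 11 on the other. The GABA type B receptor subunit 1 had 10 and 25 reads on its leading copy, and 0 female and 3 male reads on the other. Transmembrane protein 184B had the widest difference in pooled sex ratio among the 10 sets whose 2 leading copies each had 20 or more reads. Its LOC109420223 had 4 female and 24 male reads, and its LOC109409970 had 9 female and 11 male reads. All 9 female reads of the second copy were in replicate 1, and 9 of its male reads were in replicate 2.

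Members were also grouped by words in their product names. Kinases and phosphatases had 6 sets with 180 reads and metabolic enzymes 10 sets with 311, and neither had a called member (1 and 4 tested). The small phosphatase 1 of the RNA polymerase II carboxy-terminal domain had 3 female and 22 male reads on one copy and 2 female and 17 male reads on the other. Membrane transporters had 4 sets with 357 reads, of which 317 were those of the proton pump, and 0 of 2 tested members passed. The words of that list did not take in the ABC transporter G4. The beta-2 subunit of the sodium/potassium pump had 2 female and 9 male reads on one copy and 0 female and 7 male reads on the other. RNA binding and translation proteins, as matched by words in product names, had 9 sets with 58 reads and no tested member, and 3 of these sets had equal copies. Their words did not take in release factor subunit 1. Translation initiation factor 5 had 4 female reads and 1 male read on one copy and 3 female reads and 1 male read on the other, the female reads all in replicate 2.

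The ubiquitin pathway had 2 sets with 61 reads, chromatin and transcription factors 2 with 27, vesicle traffic 1 with 28, and adhesion 1 with 25. The ubiquitin ligase RBBP6 had 15 female and 8 male reads on one copy and 9 and 5 on the other. The F-box/LRR-repeat protein 16 had 13 female and 4 male reads on LOC109431971 and 0 female and 7 male reads on LOC109407712. Synaptotagmin-6 had 11 female and 11 male reads on its leading copy and 0 female and 6 male reads on the other. Zinc finger protein 91 had 4 female and 8 male reads on one copy and 0 female and 5 male reads on the other. The activating transcription factor of chaperone had 4 female and 2 male reads on one copy and 0 female and 4 male reads on the other. None of the members named in these 4 groups was tested singly. No set was found for the words of GTPases, ovary, sex determination or uncharacterized products. The 1 set under testis was spermine synthase, matched by its spelling, with 6 and 5 reads on its copies, and the 2 sets under cytoskeleton were actin-5C and contactin-associated protein 4. Contactin-associated protein 4, also the adhesion set, had 17 and 8 reads on its copies.

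Reads in females alone were found for 26 members (15.5%), against 18.4% of all exon-exon circRNAs. Reads in males alone were found for 53 members (31.5%), against 36% of all exon-exon circRNAs. Low reads and the larger male libraries move with such counts, and these shares were not tested. By set, 10 had reads in females alone and 16 in males alone. The adapter protein ced-6, which acts in engulfment of dying cells, was the highest of them, with 14 and 5 reads on its copies in male libraries and 0 in females. A count of 0 in females allows up to 3 of their 47311 pooled reads, against 19 of 73733 in males. It was singled out after its values were seen and was not tested, as it had too few reads.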

How the data were processed

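Counts of back-splice junction reads were measured in 6 whole-body libraries. Directional libraries were made from RNase R-treated RNA after depletion of ribosomal RNA, per the labels' protocols. Bowtie2 2.1.0 is listed in the submitters' processing notes. For the caller of circRNAs, build and annotation, no name is given in the sources used here. The deposited count table, raw per the file headers and values, has 30393 lines, which repeat a circRNA for each protein, and was collapsed to 8690 circRNAs. Spliced lengths are the authors' values. The table of CPM values was not used.

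Members followed the rule in the opening, with names compared as joined in the table. Members and lists were chosen with earlier results of these data known. The sex test was run on raw counts in edgeR 4.0.16 with R 4.3.3 (TMM, minimum count 5, minimum total 15, quasi-likelihood F test), singly, with copies summed, and between copies by diffSpliceDGE. Levels are reads per 10000 of the TMM-scaled library. Fold changes are female over male. DESeq2 1.42.0, other scaling, no filter, a replicate block and leaving out each library were tried. Binomial intervals cover counting error only. Those on reads pool the 6 libraries, so they leave out the spread between libraries, and the leading copy was picked from the same reads. Reads carry no molecular identifiers, so the counting error itself may be larger. SEs were calculated as the absolute log2 change divided by the square root of edgeR's F statistic, and include the spread between libraries. Intervals of differences between copies combine the SEs of both copies. The tests were tried on simulated data. Gene IDs were matched to the AalbF5 RefSeq gene table by symbol. Named sets were the 10 with most reads, those called, those with the largest difference in sex ratio, 1 copy holding 95% or more, near-even splits, most host genes, nearest copies, and up to 2 per product list. Some other sets, marked as such, were singled out after their values were seen. Lists match words in product names. Figures used matplotlib 3.10.9 in Python 3.11.15.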

Additional observations from a re-analysis of the deposited data

How the results depend on the processing

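The number of circRNAs with a possible copy was 168 as reported. It was 88 with names as deposited, 1172 whatever the name and, as an alternative chosen after seeing the data, 304 with distinct product names. With names as reported and an inner intron required it was 100. With distinct names 28 of 150 sets had equal copies and 128 had exactly 1 match in AalbF5. With 6 or more reads required, 10 of 71 sets had equal copies. Without a filter on low counts 0 of 168 tested members and 0 summed sets were higher in females. Leaving out each library gave 0 to 1 members higher in females and 0 to 1 higher in males, of 29 to 40 tested. It gave 0 to 1 summed sets higher in males. The cause of these shifts was not tested. Shares of all features called in these fits, and with a replicate block, are not given here. The share of reads on members differed by -0.042 to 0.211 percentage points when a library was left out, and turned sign without female replicate 3 or male replicate 1.

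Same-numbered libraries of the sexes did not deviate together (correlations 0.019, 0.001 and -0.017), so the numbers are not taken as pairs. With a replicate block in edgeR, 1 of 23 tested members was higher in males (LOC109429564, adjusted p = 0.0362), 1 higher in females and no difference between copies passed. Without the filter, uncalled log2 fold changes turned sign for LOC109400201 of takeout (-0.1), LOC109409682 of the proton pump (-0.21) and its summed copies (-0.11). When a library was left out, they ran from -0.17 to 0.57 for LOC109400201, -0.68 to 0.05 for LOC115266354, -0.52 to 0.35 for LOC109409682, -0.51 to 0.25 for summed takeout, -0.2 to 0.35 for the summed pump and -1.2 to 0.27 for summed dedicator of cytokinesis 9. At a median of 6 reads, 145 of 168 members could not be tested.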
